A study of Mus musculus with 6 samples.

Results

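The genes described here are the protein-coding mouse genes named Zfp and a number that were expressed in islets, selected on their level, a mean of at least 3 FPKM over 6 RNA sequencing libraries. FPKM counts fragments per kilobase of gene and corrects for the size of the library. There were 177 such genes, of 365 protein-coding genes with that kind of name and 54556 genes in the deposited table. The libraries were made from pancreatic islets of C57BL/6 mice on normal chow at 8 weeks of age. Mettl3 flox/flox mice without Cre gave 3 libraries. The other 3 came from mice whose label names a β-cell Mettl3 knockout, which carry the same floxed allele together with RIP-Cre, a Cre driven by a rat insulin promoter. The question posed by the design is how islet gene expression differs when METTL3 is deleted in β cells. No library carries Cre without the floxed allele. The labels do not give the exons removed, whether islets were pooled from more than 1 animal, or which animal gave which library. The p-values therefore measure the spread between libraries, which may be technical.

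Mettl3 itself stood at 3.42, 2.89 and 3.93 FPKM in the flox/flox libraries and at 4.06, 4.20 and 4.15 FPKM in the libraries labelled knockout (log2 difference 0.25 ± 0.11 SE, limma adjusted p = 0.12). The targeted transcript was thus not lower, and the level of the whole gene does not check the labels, since reads from exons that remain are counted too. Each library held between 16398862 and 18387313 reads assigned to genes. The insulin and other β-cell markers summed to 276826 to 335612 CPM (reads scaled to the library's own total) in flox/flox and 160953 to 173306 in the libraries labelled knockout, so the islet identity was clear in both groups. In whole islets, fewer cells of a type and less RNA per cell cannot be told apart. In the labelled knockout group, replicate 3 was the middle value of its group for 51.4% of the 14497 genes tested and for 82 of the 177 Zfp genes (46.3%). Each library would hold the middle place equally often if the libraries of a group differed at random. Whether RNA was shared between libraries was not tested.

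Most Zfp genes encode C2H2 zinc-finger proteins, in which each finger holds a zinc ion with a pair of cysteines and a pair of histidines and reads a few bases of DNA. Long runs of fingers are usually encoded in a single large terminal exon. Many of these proteins carry a KRAB domain that recruits TRIM28 (KAP1) and the histone H3 lysine methyltransferase SETDB1 and silences transposable elements, while a SCAN domain lets proteins pair with each other and a BTB domain does so and binds co-repressors. METTL3 is the enzyme that, in a complex with other proteins, adds N6-methyladenosine (m6A) to mRNA. In mRNA, m6A sits mostly in long internal exons and around stop codons, within a 5-base motif known as DRACH, and zinc-finger mRNAs are among those known to carry many such sites. No m6A was measured in these libraries.

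The repeated finger is visible in the mRNA as a repeated stretch of sequence. The first finger with its linker is given for 3 genes that were higher in the libraries labelled knockout (Zfp971, Zfp628 and Zfp467) and for 3 that were lower (Zfp950, Zfp422 and Zfp1), the largest rises and falls among genes with at least 3 such units of standard spacing and linker. Each is a 78-base stretch of coding sequence from the GENCODE M21 transcripts on GRCm38, sense strand, 5′ to 3′. Capitals mark matches to DRACH (A, G or T, then A or G, then A, then C, then A, C or T), searched on the sense strand only, with overlapping matches allowed.
Zfp971: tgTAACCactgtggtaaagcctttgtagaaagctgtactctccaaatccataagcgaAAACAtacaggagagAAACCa
Zfp628: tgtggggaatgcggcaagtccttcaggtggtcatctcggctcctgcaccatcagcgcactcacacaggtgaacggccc
Zfp467: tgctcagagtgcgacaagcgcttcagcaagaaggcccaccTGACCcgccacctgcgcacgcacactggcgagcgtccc
Zfp950: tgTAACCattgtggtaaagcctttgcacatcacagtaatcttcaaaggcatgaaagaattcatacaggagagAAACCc
Zfp422: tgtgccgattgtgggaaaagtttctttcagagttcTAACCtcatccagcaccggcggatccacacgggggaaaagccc
Zfp1: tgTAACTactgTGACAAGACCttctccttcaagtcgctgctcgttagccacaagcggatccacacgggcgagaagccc
The linker at the right end of the stretch holds a match in Zfp971 and Zfp950, which moved in opposite directions, and none in the other four.

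Over all 177 genes there were 700 stretches of this kind, and 587 of them (83.9%) held at least 1 DRACH match, against 79.4% of 199100 stretches of the same length cut from the coding sequences of protein-coding genes with a mean of at least 3 FPKM. The motif AAACC, also searched on the sense strand, lay in the 21 bases at the linker end in 333 of the 700 (47.6%), against 1.72% of the comparison stretches. It is part of DRACH, so the 2 searches overlap. The 700 stretches were chosen by a protein pattern that ends in lysine or arginine and then proline. A lysine codon AAA before a proline codon spells AAACC, and the comparison stretches were not chosen in this way. The contrast in AAACC therefore largely restates the choice. The array of Zfp950 shows how the match recurs with the finger. This gene has 15 such units, the most of any called member, and 3 adjacent ones are given, 246 bases of coding sequence with 1 unit every 84 bases and 7 matches in capitals, 3 of them in linkers.
Zfp950 array: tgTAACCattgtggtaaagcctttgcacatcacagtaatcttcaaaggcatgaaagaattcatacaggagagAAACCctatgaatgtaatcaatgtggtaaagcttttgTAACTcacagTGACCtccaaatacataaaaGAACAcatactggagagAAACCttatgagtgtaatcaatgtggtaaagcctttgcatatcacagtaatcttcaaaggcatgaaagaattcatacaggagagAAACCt
A match is a description of the letters and does not show that a site is methylated.

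The 177 Zfp genes moved in both directions, with more rises than falls, though with quantile normalization the calls were nearly even (28 higher, 27 lower). In the libraries labelled knockout 36 genes were higher and 24 were lower past the test, and 117 did not pass (limma on log2(FPKM + 0.5), Benjamini-Hochberg adjusted p under 0.05 over all 14497 genes with a mean of at least 1 FPKM). The 60 called genes are 33.9% of the members. Of all tested genes 34.0% were called, 16.9% higher and 17.2% lower, and of the 9025 protein-coding genes with a mean of at least 3 FPKM 37.7% were called. The share of Zfp genes called is therefore close to the background. By direction, 20.3% of the Zfp genes were higher and 13.6% lower. The groups of 3 libraries did not overlap for 94 of the 177 genes (53.1%), 60 with the labelled knockout above and 34 below, against 50.5% of all tested genes. All 60 called genes were among them.

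The differences were small. The median log2 difference over the 177 genes was 0.05 (quartiles -0.18 and 0.27), beside -0.00 over all tested genes and -0.02 over protein-coding genes with a mean of at least 3 FPKM. Only Zfp882 differed by at least 1 on the log2 scale (0.565% of members), against 4.82% of the protein-coding genes at that level. A difference of at least 0.5 was seen in 20 members (11.3%) and in 19.4% of those protein-coding genes. The summed level of the 177 genes was nearly the same in the groups, at 1234, 1238 and 1242 FPKM in flox/flox and 1251, 1246 and 1252 FPKM in the labelled knockout. The coefficient of variation between the libraries of a group had a median of 8.15% in flox/flox and 6.64% in the labelled knockout. It was highest for Zfp428 in flox/flox (37.0%) and for Zfp703 in the labelled knockout (30.8%).

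**Figure D1:**
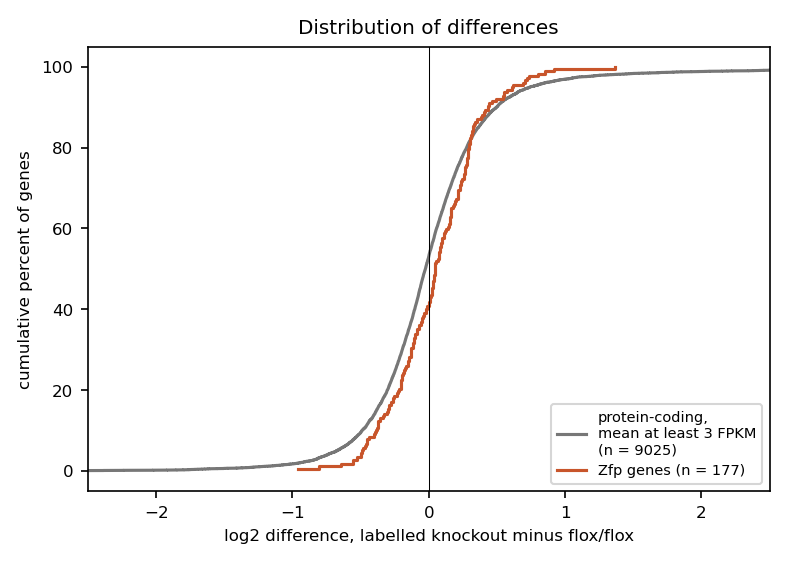
Cumulative percent of genes (vertical axis) by log2 difference, labelled knockout minus flox/flox, on the log2(FPKM + 0.5) scale (horizontal axis). The line of the 177 Zfp genes has shorter tails than that of the 9025 protein-coding genes with a mean of at least 3 FPKM and runs to its right near 0, with medians of 0.05 and -0.02.

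The scaling and single libraries set how many genes passed. When each library was scaled to its own total, the median of all tested genes shifted up by 0.36 and that of the Zfp genes by a similar amount to 0.43, and 121 members were called higher and 3 lower. All 36 rises were still called higher on that scale. Of the 24 falls, 19 kept a negative difference, 5 turned positive and 3 were still called. Without replicate 3 of the labelled knockout 29 members were called (14 higher, 15 lower), without flox/flox replicate 3 there were 37 (20 higher, 17 lower), and without flox/flox replicates 1 or 2 there were 40 and 45. Without replicates 2 and 3 of the labelled knockout together, 6 members passed (3 higher, 3 lower), with 1 library left in that arm and assumed to vary like the others. The direction of all 60 called genes was kept whenever libraries were left out. This had to be so, since the groups did not overlap for any of them, and it says nothing about stability.

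The level rule also bears on these counts. Just inside the mean of 3 FPKM lay Zfp87 and Zfp606 (both 3.03), and just outside lay Zfp3 (2.94) and Zfp748 (2.93). Below 3 FPKM in 1 of the groups were 18 members, 13 in flox/flox and 5 in the labelled knockout. Such genes entered through the group where they are higher, and 10 of them were called. Among them, Zfp882, Zfp451, Zfp971, Zfp369, Zfp319 and Zfp606 were under 3 FPKM in flox/flox and Zfp182 and Zfp653 in the labelled knockout, so the choice of members favours a difference in these genes. Among the 159 genes with a mean of at least 3 in both groups, 50 were called (28 higher, 22 lower; 31.4%). The 102 Zfp genes tested below a mean of 3 FPKM gave 10 rises and 2 falls (11.8%).

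Other cell types differed between the groups. The sums given here are scaled to each library's own total, while the calls beside them are on the deposited FPKM. With own-total scaling the median difference of all tested genes was 0.36, so a sum and its calls can point in different directions. Lymphocyte markers summed to 21.4 to 30.3 CPM in flox/flox and 719 to 890 in the labelled knockout, and 11 of 11 tested were higher. Enterocyte markers summed to 144 to 168 and 447 to 1738, highest in replicate 2, and 10 of 10 tested were higher; Alpi, Krt20, Cdx2 and Cdx1 were at 0 in all flox/flox libraries. Proliferation markers summed to 26.0 to 47.3 and 112 to 139, with 4 of 5 higher. Markers of acinar cells (842 to 2674 and 503 to 922, 9 of 9 lower), endothelial cells (1893 to 2062 and 1331 to 1604, 8 of 8 lower) and β cells (11 of 12 lower) moved the other way. Stellate and fibroblast markers summed to 101 to 146 and 217 to 229 (5 of 7 higher, 1 lower), macrophage markers to 165 to 176 and 220 to 257 (1 of 7 higher, 2 lower), and duct markers to 251 to 366 and 467 to 482 (limma, 0 of 5 called, 0 at an unadjusted p under 0.05). Markers of α, δ and PP cells summed to 11041 to 15704 and 14934 to 22202 (limma, 0 of 5 called, 1 at an unadjusted p under 0.05). Their part in the Zfp differences was not tested.

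Among the 73 genes that the deposited annotation labels with a KRAB domain, rises and falls were equal in number. It gives 1 domain label per gene. Of these genes 9 were higher and 9 lower (24.7% called; median log2 difference 0.04), beside 27 higher and 15 lower of the 104 genes without that label (40.4%). Among the KRAB rises, Zfp882, Zfp971, Zfp994 and Zfp606 had flox/flox means under 3 FPKM. Among the KRAB falls, only Zfp182 had a labelled knockout mean under 3 FPKM. The level rule favours calls in such genes, more of them rises, so the equal numbers depend in part on that rule. Genes without the KRAB label also include such calls, and neither class was counted without them. The KRAB genes had lower levels, with a median of 4.70 FPKM against 6.21. A search for a KRAB motif in the translated coding sequences found it in 41 of the 73 labelled genes and in 5 others. By motif, 5 of 46 genes were higher and 7 lower, beside 31 and 17 of the 131 genes without it. The difference between the classes was not tested. Without labelled knockout replicates 1, 2 or 3 in turn the KRAB count of 18 became 10, 9 and 10, and the count of 42 became 24 and 19 when replicate 3 of flox/flox or of the labelled knockout was left out.

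Zfp882, a KRAB zinc-finger gene on chromosome 8 (GRCm38 chr8:71908608-71916354, + strand), had the largest difference of all members, but its flox/flox mean of 2.21 FPKM is below the level rule, so it was a member only through the group where it is high. Among the 159 genes with at least 3 FPKM in both groups the largest rise was 0.92 (Zfp292). Zfp882 stood at 2.13, 1.92 and 2.57 FPKM in flox/flox and at 6.20, 6.69 and 6.46 FPKM in the labelled knockout. Every labelled knockout library lay above the highest flox/flox library, and the gene rose by 1.37 ± 0.11 (SE; limma adjusted p = 0.000361). It passed under every alternative tried. Its exons overlap those of Zfp617 on the same strand, and Zfp617 went from 4.04 ± 0.501 to 4.83 ± 0.716 FPKM (SD, n = 3; difference 0.23 ± 0.13, limma adjusted p = 0.208), so reads in shared exons could be assigned to either gene. The next gene along, Zfp961, stood at 3.25, 3.15 and 4.01 and then 4.60, 5.20 and 4.48 FPKM (0.41, limma adjusted p = 0.0292). Zfp961 and Zfp617 were named after their values were seen. Zfp961 shares exon positions with Cyp4f18 on the opposite strand, which was also higher (0.79, limma adjusted p = 0.0221), and the strandedness of the libraries is not given in the sources used here.

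Other KRAB genes rose by less. Zfp971 (chr2:178023284-178034022) stood at 2.03, 2.19 and 2.39 FPKM in flox/flox and at 3.40, 3.93 and 4.79 in the labelled knockout, without overlap, and rose by 0.74 ± 0.13 (limma adjusted p = 0.00723). Of its 50-base stretches, 40.0% also occur in Gm14288, so its level is uncertain. Zfp212 (chr6:47920476-47932639) stood at 8.45, 9.18 and 7.79 and then 13.96, 15.3 and 13.1 FPKM, a rise of 0.70 ± 0.09 (limma adjusted p = 0.00202) with a wide gap between the groups. Zfp40 (chr17:23173869-23193252) stood at 3.39, 2.21 and 3.82 and then 4.46, 4.86 and 4.91 FPKM (0.55 ± 0.17, limma adjusted p = 0.049). Leaving out replicate 1 of flox/flox, or any replicate of the labelled knockout, ended the call of Zfp40 (limma adjusted p between 0.0775 and 0.136), as did the replicate block (0.0597) and quantile normalization (0.0693).

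The 9 KRAB falls ran from -0.33 to -0.50, and the 4 largest are given here. Zfp61 (chr7:24291039-24301232) went from 8.77, 8.48 and 7.53 FPKM in flox/flox to 5.65, 5.46 and 5.96 (-0.50 ± 0.08, limma adjusted p = 0.00494), and the groups did not overlap. Zfp707 (chr15:75969123-75975868) went from 8.52, 6.92 and 8.06 to 5.88, 5.18 and 5.23 FPKM (-0.49 ± 0.10, limma adjusted p = 0.0108). Zfp810 (chr9:22276748-22307648) went from 7.80, 7.46 and 7.24 to 5.37, 5.33 and 5.15 FPKM (-0.47 ± 0.06, limma adjusted p = 0.00289), with little spread in either group. Zfp182 (chrX:21028939-21062316) went from 4.33, 3.32 and 4.34 to 2.32, 2.68 and 3.06 FPKM (-0.50 ± 0.14, limma adjusted p = 0.0324), and its lowest flox/flox library lay just above its highest labelled knockout one. Leaving out replicate 1 or 3 of flox/flox, or replicate 1 or 2 of the labelled knockout, ended the call of Zfp182 (limma adjusted p 0.0953, 0.102, 0.0836 and 0.0745). None of these 4 falls passed with own-total scaling (limma adjusted p 0.223 to 0.407), on which each stayed negative.

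Further KRAB genes did not pass. Zfp869, among the 5 members with the highest level, stood at 19.2, 19.4 and 19.1 FPKM and then 20.03, 18.6 and 20.99 (0.04 ± 0.07, limma adjusted p = 0.657), with overlapping groups. Zfp809, which binds the primer site of murine retroviruses and silences proviral DNA, stood at 8.58 ± 0.779 and 8.05 ± 0.269 FPKM (SD, n = 3; -0.08, limma adjusted p = 0.469).

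**Figure D2:**
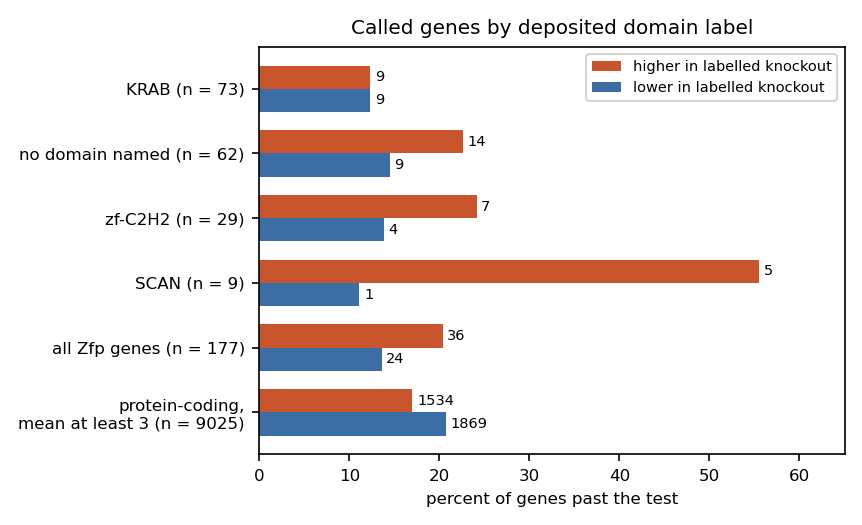
Percent of genes past the test (horizontal axis, from 0) by the domain label in the deposited annotation, with the number of genes at the end of each bar, orange for higher and blue for lower in the labelled knockout. The 73 KRAB genes have 9 of each, the 9 SCAN genes have 5 higher and 1 lower, and the bottom pair shows 1534 and 1869 of the 9025 protein-coding genes with a mean of at least 3 FPKM.

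Of the 9 genes labelled SCAN, 5 were higher and 1 was lower, with a median log2 difference of 0.28. Of all tested genes 34.0% were called, 16.9% higher and 17.2% lower, and a class of 9 is small. The SCAN genes were named after their values were seen, apart from Zfp369. Zfp369 (chr13:65278814-65304221) stood at 2.99, 2.41 and 3.37 FPKM in flox/flox and 4.55, 4.76 and 4.82 in the labelled knockout, and rose by 0.62 ± 0.12 (limma adjusted p = 0.00923). Its flox/flox mean of 2.92 FPKM is below the level rule, so the choice of members favours its rise. Zfp445, which maintains genomic imprints, went from 16.2 ± 0.497 to 19.7 ± 0.490 FPKM (SD, n = 3; 0.28, limma adjusted p = 0.0136). Zfp397, Zfp110 and Zfp24 rose by 0.33, 0.31 and 0.29. Zfp263 fell by 0.26 (from 10.1 ± 0.795 to 8.36 ± 0.361 FPKM), and Zfp174, Zfp444 and Zfp446 had differences of 0.16, -0.13 and -0.26 that did not pass. With 1 library left out, between 1 and 4 SCAN genes were called higher (the 1 being without replicate 3 of either group) and 0 lower (limma, 0 to 2 at an unadjusted p under 0.05). The 2 genes labelled BTB moved in opposite directions, and both passed. Zfp651 (chr9:121759330-121771742) went from 4.93, 5.77 and 5.89 to 3.40, 3.24 and 3.45 FPKM (-0.64 ± 0.09, limma adjusted p = 0.00285), with every labelled knockout library well below flox/flox, while Zfp131 rose by 0.33.

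Genes of RNA binding, translation and protein modification came next in the order of roles. Zfp36 (tristetraprolin), a CCCH protein that binds AU-rich elements and starts mRNA decay, had the highest level of all members. It stood at 54.1, 79.9 and 64.1 FPKM in flox/flox and at 66.8, 65.8 and 64.4 in the labelled knockout (0.01 ± 0.14, limma adjusted p = 0.968). The flox/flox libraries spread on both sides of the labelled knockout, and leaving out 1 library moved the difference between -0.12 and 0.15. Zfp598, a ubiquitin ligase that acts on collided ribosomes, stood at 26.1, 23.6 and 25.5 and then 20.9, 23.6 and 20.7 FPKM (-0.20 ± 0.08, limma adjusted p = 0.0868). Its replicate 2 was alike in both groups, and without labelled knockout replicate 2 it passed (limma adjusted p = 0.0458). Zfp598 was positive with own-total scaling (0.19).

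Zfp622, a factor of 60S ribosome maturation, rose. It stood at 7.09, 5.83 and 6.42 FPKM in flox/flox and at 12.7, 9.12 and 10.6 in the labelled knockout (chr15:25984366-25998481; 0.69 ± 0.13, limma adjusted p = 0.00887), with no overlap, and it passed under every alternative tried. Zfp346, also called JAZ, binds double-stranded RNA and had the largest fall. It stood at 15.9, 9.70 and 13.7 FPKM in flox/flox and at 7.62, 4.90 and 6.85 in the labelled knockout (chr13:55105311-55134825; -0.96 ± 0.22, limma adjusted p = 0.0163). Its lowest library was replicate 2 in both groups, and the groups did not overlap. The call of Zfp346 was lost without flox/flox replicate 3 (limma adjusted p = 0.0562).

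Zfp451, which ligates SUMO, rose from 2.85, 2.42 and 3.02 FPKM to 5.003, 5.69 and 5.46 (chr1:33761545-33814595; 0.85 ± 0.10, limma adjusted p = 0.00156), and the lowest labelled knockout library was far above the highest flox/flox one. Several others did not pass. Zfp91, a ubiquitin ligase, had a difference of 0.09, and the RNA-binding Zfp106 one of 0.07. Zfp326, part of a complex that couples splicing to transcription, had 0.07, and Zfp638, which silences unintegrated retroviral DNA, 0.03 (limma adjusted p 0.284, 0.49, 0.618 and 0.815). Both of the last turned to -0.01 with quantile normalization. Zfp207, a spindle and mitotic checkpoint protein, stood at 20.5, 19.9 and 19.1 and then 20.3, 20.1 and 21.1 FPKM (0.05 ± 0.06, limma adjusted p = 0.572), with overlapping groups.

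Regulators of chromatin and cell identity among the named genes are given next. Zfp281, a transcription factor of the pluripotency network, stood at 3.87, 3.76 and 3.86 FPKM in flox/flox and at 6.35, 5.57 and 6.48 in the labelled knockout (chr1:136624901-136630053; 0.61 ± 0.08, limma adjusted p = 0.00228). The flox/flox libraries hardly differed and lay below all others. Zfp148, its relative that binds GC-rich promoters, rose from 8.73 ± 0.477 to 11.3 ± 0.538 FPKM (SD, n = 3; 0.35, limma adjusted p = 0.0115). Zfp687 and Zfp592, partners in 1 chromatin complex, rose by 0.27 and 0.24 (limma adjusted p = 0.0401 and 0.0334). These 3 calls were not firm. Zfp148 was lost without labelled knockout replicate 3 (0.0546). Zfp592 was lost without any 1 of the 6 libraries (0.0625 to 0.101) and with the replicate block (0.0566). Zfp687 was lost without each library but labelled knockout replicate 1 (0.086 to 0.137) and with the block (0.0626).

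Zfp217, found in CoREST co-repressor complexes, had a difference of 0.34 that did not pass (3.28 ± 0.318 and 4.29 ± 0.56 FPKM, SD, n = 3; limma adjusted p = 0.0592) and passed with the replicate block (0.0338). Zfp800 (0.31), Zfp335 (0.11) and Zfp384 (-0.05) did not pass (limma adjusted p 0.188, 0.383 and 0.673). Zfp143, an activator that binds promoters and chromatin loop anchors, stood at 4.67, 4.39 and 4.62 FPKM and then 4.23, 3.24 and 3.46 (-0.29 ± 0.10, limma adjusted p = 0.0698), without overlap. It passed without labelled knockout replicate 1 (0.0233) and was positive with own-total scaling (0.07), as were Zfp384 (0.34) and Zfp809 (0.30).

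Of the 12 largest rises, a further 4 carry neither a KRAB nor a SCAN label. Zfp292, a large protein first described as an activator of growth hormone expression, stood at 7.96, 6.88 and 8.25 FPKM in flox/flox and at 13.97, 15.3 and 15.5 in the labelled knockout (chr4:34803113-34882960; 0.92 ± 0.09, limma adjusted p = 0.000814). The groups were far apart. Zfp703, a co-repressor known as an oncogene of breast cancer, stood at 3.72, 3.80 and 3.42 and then 9.18, 4.96 and 6.60 FPKM (chr8:26977325-26981461; 0.80 ± 0.20, limma adjusted p = 0.0224). Its labelled knockout libraries differed widely from each other. The call of Zfp703 was lost without any flox/flox replicate (0.0577, 0.0539 and 0.0713) or without labelled knockout replicate 3 (0.0685).

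Zfp628 stood at 4.75, 5.78 and 5.58 and then 9.57, 9.58 and 8.36 FPKM (chr7:4915217-4922002; 0.72 ± 0.10, limma adjusted p = 0.00259), with no overlap. Zfp467, known for directing mesenchymal precursors to fat, stood at 6.83, 4.98 and 7.03 and then 10.5, 8.33 and 9.72 FPKM (chr6:48427697-48445825; 0.57 ± 0.15, limma adjusted p = 0.0256). Its replicate 2 was lowest in both groups, and its call was lost without labelled knockout replicate 1 or 3 (0.0706 and 0.0837).

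**Figure D3:**
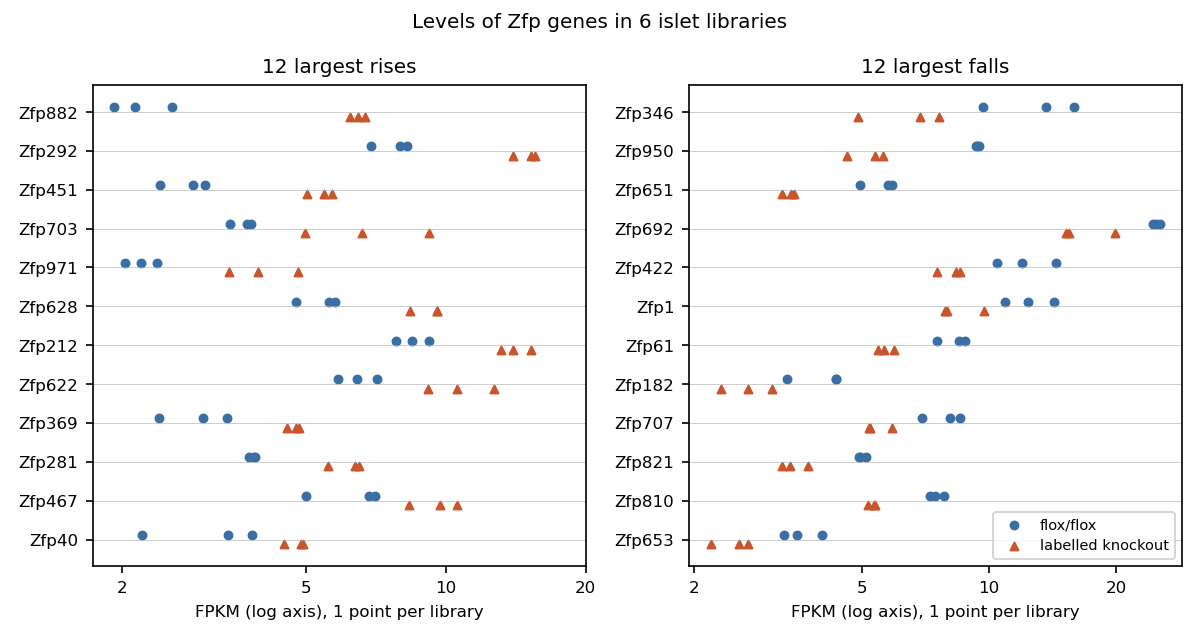
FPKM of the 12 largest rises (left) and 12 largest falls (right) among called Zfp genes, on a log axis, with 1 point per library (circles flox/flox, triangles labelled knockout). The groups do not overlap for any of these 24 genes, which the choice required, and the triangles of Zfp703 spread from 4.96 to 9.18 FPKM.

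Among the falls outside the KRAB and BTB labels, Zfp950 (chr19:61053840-61140840), the gene of the finger array shown above, went from 9.30, 9.37 and 9.48 FPKM in flox/flox to 4.60, 5.60 and 5.36 in the labelled knockout (-0.80 ± 0.08, limma adjusted p = 0.00107). The flox/flox libraries were nearly equal and stood far above the others, and it passed under every alternative tried. Zfp692, an AMPK-regulated repressor and one of the 5 members with the highest level, went from 24.4, 24.8 and 25.4 to 15.2, 19.9 and 15.5 FPKM (chr11:58307069-58314627; -0.56 ± 0.11, limma adjusted p = 0.0097). Zfp422 (Krox-26), known from tooth development, went from 10.4, 14.4 and 11.9 to 8.32, 8.53 and 7.54 FPKM (chr6:116624016-116628999; -0.55 ± 0.12, limma adjusted p = 0.0149). Its flox/flox libraries spread more than its labelled knockout ones.

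Zfp1 (chr8:111643401-111671011) went from 12.4, 14.2 and 10.9 to 9.71, 7.85 and 7.94 FPKM (-0.53 ± 0.12, limma adjusted p = 0.0188). Although Zfp1 has no KRAB label, the motif search found a KRAB motif in it. Zfp821 (chr8:109705546-109724932) went from 4.91, 4.95 and 5.12 to 3.72, 3.38 and 3.22 FPKM (-0.48 ± 0.08, limma adjusted p = 0.00519). Zfp653 (chr9:22055411-22071376) went from 4.02, 3.50 and 3.26 to 2.20, 2.55 and 2.69 FPKM (-0.46 ± 0.11, limma adjusted p = 0.0216). Neither Zfp1, Zfp821 nor Zfp653 overlapped between the groups. Zfp1 was lost without replicate 1 of flox/flox (0.0522) and without replicate 2 or 3 of the labelled knockout (0.0543 and 0.0717), and Zfp653 without replicate 1 of flox/flox or of the labelled knockout (0.0649 and 0.0552) and with the replicate block (0.0558). Zfp422 was lost without labelled knockout replicate 3 (0.0602). With own-total scaling Zfp692, Zfp422, Zfp1, Zfp821 and Zfp653 stayed negative and none passed (0.222 to 0.426).

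The Zfp genes stood out from other genes in the shape of their transcripts, taken for each gene from the GENCODE M21 transcript with the longest coding sequence. Their longest exon had a median of 2553 bases, against 1270 in protein-coding genes with a mean of at least 3 FPKM, and it was at least 1000 bases long in 158 genes (89.3% against 59.2%). It was the last exon in 167 of 177 (94.4% against 85.0%). It held a median of 79.8% of the coding sequence, against 13.9%. The transcripts carried a median of 73 DRACH matches (56 in the comparison genes), at a density of 20.4 per 1000 bases against 19.9, so the larger number went with length. The median number of C2H2 fingers found was 9, with 33 in Zfp462 and none in Zfp703, Zfp839, Zfp36 and Zfp330.

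When the 177 genes were split into 3 equal classes of 59 by the longest exon, the median difference rose from -0.02 (246 to 1992 bases) to 0.08 (1995 to 3323 bases) and 0.16 (3338 to 11879 bases). The rises and falls were 9 and 11, 11 and 9, and 16 and 4. The protein-coding genes at that level had the same order within these bounds, with medians of -0.07, 0.04 and 0.13 and rises and falls of 850 and 1474, 340 and 242, and 342 and 137. Spearman's rho between difference and longest exon was 0.314 across the 177 genes and 0.231 across the protein-coding genes, and against the number of DRACH matches it was 0.321 and 0.164. These are descriptions across genes of the same libraries, which are not independent replicates. Among the rises of the long class, Zfp994, Zfp319 and Zfp606 were under 3 FPKM in flox/flox, so the choice of members favours their rise. The other classes also hold such genes, and the classes were not counted without them. DRACH density (Pearson's r 0.0735) and number of fingers (rho 0.0652) showed little relation with the difference. Against the log10 of the mean level Pearson's r was -0.191. Level also differed between the classes, with medians of 6.39, 5.24 and 5.21 FPKM from the short to the long class. In the protein-coding genes these medians were 9.59, 7.55 and 6.46 FPKM. The part of level in the order of the classes was not tested. The gap between the long and short class stayed between 0.13 and 0.24 under all alternatives. The 16 and 4 calls of the long class became 3 and 1 without labelled knockout replicate 3. They became 10 and 6 with quantile normalization and 47 and 1 with own-total scaling.

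**Figure D4:**
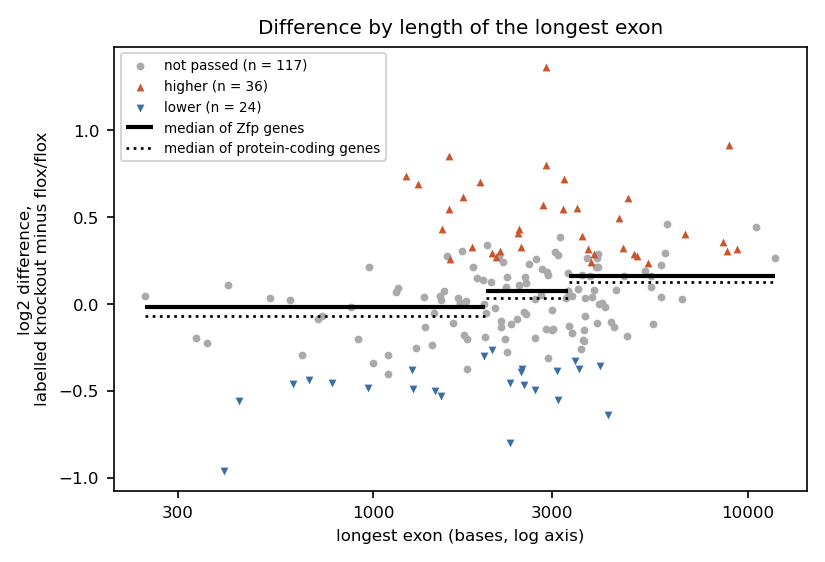
Log2 difference (labelled knockout minus flox/flox) against the length of the longest exon (bases, log axis) for the 177 Zfp genes, with grey points not passed, triangles up higher and triangles down lower. Solid lines give the median of the Zfp genes in each class of 59 (-0.02, 0.08 and 0.16) and dotted lines the median of protein-coding genes within the same bounds (-0.07, 0.04 and 0.13).

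Among the members with the longest exons, named after their values were seen, Zfp652 (8815 bases, 0.31), Zfp318 (9391 bases, 0.32) and Zfp319 (6802 bases, 0.40) rose, like Zfp148 (8618 bases) and Zfp292 (8931 bases). Zfp319 was a member only through the labelled knockout group. Zfp871 (10513 bases, 0.44) and Zfp704 (11879 bases, 0.27) did not pass (limma adjusted p 0.0812 and 0.0886). Of the 6 shortest, Zfp346 (399 bases) and Zfp692 (437 bases) fell, and Zfp207 (246 bases), Zfp414 (335 bases), Zfp511 (360 bases) and Zfp335 (410 bases) did not pass.

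Many Zfp genes lie in clusters. With a gap of at most 300000 bases, 88 members fell into 25 clusters of at least 2 genes. The cluster with the most members, chr17:21383748-22456689, held 12 genes (11 labelled KRAB) with 2 higher and 1 lower, and the next, chr7:29768552-30169750, held 8 genes with 0 higher and 1 lower (limma, 1 and 1 at an unadjusted p under 0.05). Zfp882, Zfp617 and Zfp961 were all positive (2 called), as were Zfp397, Zfp35 and Zfp24 (2 called) and Zfp868, Zfp869 and Zfp866 (1 called). Zfp653, Zfp809 and Zfp810 were all negative (2 called). These clusters were singled out for their shared sign, and all others of the 13 with at least 3 genes held both signs. Zfp882 was a member only through the labelled knockout group. Chromosome 7 held 44 members (7 higher, 5 lower) and chromosome 17 held 24 (4 higher, 3 lower), while 34.0% of all tested genes were called. Copies of one another can exchange reads. Of the members 93 shared no 50-base stretch with another gene, 28 shared over 5% and 10 over 20%, up to 55.5% in Zfp932. The 93 without sharing had 21 rises and 16 falls (39.8% called). Exons of 48 members overlapped those of another gene, and 14 of these were called, beside 46 of the other 129.

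The proteins that KRAB zinc fingers recruit did not move one way. Of 34 listed co-repressor genes 32 were tested, with 6 higher and 4 lower (31.3% called; median 0.06). Trim28, the scaffold bound by KRAB domains, stood at 28.2, 24.3 and 25.4 FPKM in flox/flox and 27.8, 26.3 and 24.4 in the labelled knockout (0.01 ± 0.08, limma adjusted p = 0.934), with overlapping groups. Setdb1, the methyltransferase it recruits, rose from 7.17, 7.29 and 6.36 to 10.4, 12.1 and 11.5 FPKM (0.67 ± 0.09, limma adjusted p = 0.0023), and all its labelled knockout libraries were higher. Uhrf1, which keeps DNA methylation through replication and is high in dividing cells, rose by 1.28 (0.828 ± 0.286 to 2.68 ± 0.204 FPKM, SD, n = 3), beside the proliferation markers given above. Suv39h1, another histone methyltransferase, rose by 0.45, and the deacetylase Hdac1 fell by 0.39 (17.6 ± 0.965 to 13.2 ± 0.313 FPKM). The 10 calls became 3 without flox/flox replicate 1 or 3, 4 without labelled knockout replicate 1 or 3, 5 without its replicate 2, and 6 with the replicate block or quantile normalization.

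Of 17 tested genes of m6A writing, reading and removal, 8 were higher and 0 lower (limma, 9 and 0 at an unadjusted p under 0.05), with a median of 0.32. These 8 are 47.1% of the 17, while of all tested genes 34.0% were called and 16.9% were called higher. Of the 9 m6A genes not passed, 7 were positive. The 8 rises became 5 without flox/flox replicate 2, 4 without labelled knockout replicate 3 and 14 with own-total scaling, and quantile normalization gave 8 rises and 1 fall. Rbm15, a writer subunit that guides the complex, went from 3.36 ± 0.225 to 7.01 ± 0.224 FPKM (SD, n = 3; 0.96), and Ythdf2, a reader that promotes decay, from 5.05 ± 0.475 to 9.09 ± 0.263 (0.79). The eraser Alkbh5 and the writer subunit Cbll1 rose by 0.41 and 0.39. Other zinc-finger families, taken from a mean of at least 1 FPKM and not 3, had a higher median than the Zfp genes. The tested Zfp genes below 3 FPKM had a median of 0.07. Of 73 tested genes named Zbtb, Zkscan, Zscan, Klf or Sp with a number, 19 were higher and 4 lower (31.5%), with a median of 0.22, against 0.05 in the Zfp genes. Zbtb genes gave 11 rises and 2 falls of 36 (median 0.24), Klf genes 4 and 1 of 14 (0.28), Zkscan genes 1 and 0 of 11 (0.08; limma, 3 and 2 at an unadjusted p under 0.05) and Zscan genes 1 and 1 of 8 (0.15). The difference between the families was not tested.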

How the data were processed

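Islet RNA of 3 Mettl3 flox/flox and 3 labelled knockout libraries was measured. The authors deposited 1 table of FPKM values that also lists, per the file headers, each gene's coordinates, length and annotation. Per the submitters' processing notes, the authors used DESeq2 1.16.1, featureCounts 1.5.0-p3 and HISAT2 2.0.5 with GRCm38.p6; the role of each tool is not given in the sources used here. Within a library, FPKM times length came in whole steps (100% within 0.1), each taken as 1 read, and the deposited FPKM were found to be scaled by median of ratios already, which sets the typical gene to no change. The lowest library of a member held 49 to 2841 reads, with a median of 349, so counting error is part of the spread between libraries. Unused per-sample columns numbered 0.

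The test was limma 3.58.1 under R 4.3.3 (trended eBayes, two-sided, Benjamini-Hochberg), run on log2(FPKM + 0.5) of every gene with a mean of at least 1 FPKM, which understates the change of low genes. The code was tested on simulated data. Alternatives were pseudocounts of 0.1 and 1, other filters, own-total scaling, quantile normalization, protein-coding genes only, no variance trend, a replicate block and left-out libraries. Groups came from the genotype labels. Named members are the 12 largest rises and 12 largest falls among called genes without overlap, the 5 highest levels, genes of known function listed by name, and those at the level threshold; from the co-repressor and m6A lists they are Mettl3, Trim28, Setdb1 and the 4 largest called differences of each. The members and lists were chosen with earlier results of these data known. Domain labels come from the deposited table, fingers and motifs from GENCODE M21 transcripts, found for all 177 members.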

Additional observations from a re-analysis of the deposited data

How the results depend on the processing

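With 3 libraries a group, leaving out 1 library gave between 29 and 45 called Zfp genes (14 to 26 higher, 15 to 22 lower), 9 to 13 with a KRAB label, 19 to 34 without it and 3 to 7 co-repressors, while 1370 to 2106 of all tested genes were higher and 1410 to 2130 lower; these fits have fewer samples. With replicates 2 and 3 of the labelled knockout left out together, 6 Zfp genes passed (3 higher, 3 lower; 2 with a KRAB label and 4 without), 0 co-repressors passed (limma, 5 higher and 3 lower at an unadjusted p under 0.05), and 771 of all tested genes were higher and 546 lower. Without a filter on low values 38 Zfp genes passed (20 higher; 9 with a KRAB label) and 5 co-repressors, with 32456 genes tested. With own-total scaling 124 passed (121 higher, 3 lower; 49 with a KRAB label, 75 without) and 22 co-repressors, beside 7550 and 716 of all tested genes, and the differences of Zfp143, Zfp384, Zfp598 and Zfp809 turned positive (0.0667, 0.34, 0.19 and 0.30). Quantile normalization left 6 co-repressors and turned Zfp326 and Zfp638 to -0.00768 and -0.00728. With 1 library left out, Zfp36 ranged from -0.12 to 0.15, Zfp326 from -0.0143 to 0.14 and Zfp638 from -0.0149 to 0.0553. The percent of Zfp genes called was 25.8 of those with a mean of at least 1 FPKM and 45.8 of those with at least 10. Except where a smaller number of samples or a larger number of genes is named, the cause was not tested. Of the 27 called genes among the 41 named members, 16 passed in every fit without 1 library, and Zfp882, Zfp622 and Zfp950 under every alternative. Calls lost among the 27 numbered 7 without a filter, 9 with own-total scaling, 2 without a variance trend and 22 without replicates 2 and 3 of the labelled knockout.

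The deviations of the libraries from their group means were correlated between groups. The correlation was weak for libraries with the same replicate number in the titles, at 0.0811, 0.0751 and 0.0423 for numbers 1, 2 and 3. Between unlike numbers it was negative, from -0.0679 to -0.0106. Deviations from a group mean cancel out within the group, so positive values for like numbers force negative ones on balance for unlike numbers. The negative values are therefore no separate evidence. Each library correlated best with its own number, but the labels give no pairing, and whether libraries were paired was not tested. With the replicate block 50 Zfp genes passed (28 higher, 22 lower), 6 co-repressors and 4659 of all tested genes. Zfp40, Zfp592, Zfp653 and Zfp687 were lost and Zfp217 gained, and no other call among the named members changed.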
